A study of Mus musculus with 4 samples.

Results

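The genes described here encode inhibitors of cysteine proteases: Ctla2a and Ctla2b, and the cystatins Cst3 (cystatin C), Cstb (stefin B, also called cystatin B) and Cst7 (cystatin F). Members were chosen by gene symbol, taking every probe set annotated to any of these 5 genes, of 12393 genes that have a probe set of their own on the array. This gave 7 probe sets of 22626: 1 each for Ctla2b, Ctla2a, Cst3 and Cst7, 2 for Cstb, and 1 annotated to both Ctla2a and Ctla2b, which is given apart. All 7 were brighter on average than the 40th percentile over the array, a log2 value of 5.525, below which a probe set is called dim here. The genes were picked with the difference between TCDD and DMSO already known, so their differences are given as descriptions, with no test.

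Dendritic cells (DC) came from spleens of female C57BL/6 mice aged 8 to 12 weeks, killed 24 h after an intraperitoneal injection. The TCDD group received 10 µg/kg of this dioxin, a ligand of the aryl hydrocarbon receptor (AhR), in corn oil, and the DMSO group received the solvent, likewise in corn oil. Per the labels each group had 3 mice, whose spleens were pooled before DC were enriched by density and then isolated on magnetic beads, at a stated purity over 90%, and RNA was amplified before labelling. There were 2 arrays per group, numbered as biological replicates, and no label says if the 2 arrays of a group came from separate pools of mice, so the spread between them may be technical. TCDD replicate 1 stood apart in control probe sets, where the 3′ end of Gapdh exceeded its middle by 3.6; the gap was 2.0 on the other TCDD array, and 1.5 and 2.1 on the DMSO arrays. Its part in the differences given here was not tested.

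Cysteine proteases of the papain family, the cathepsins, digest proteins in lysosomes and endosomes. In DC they cut the invariant chain and trim antigens for presentation on MHC class II, and cystatins block them by binding tightly and reversibly in the active site. Cystatin C is secreted and is made in large amounts by conventional DC, stefin B acts inside the cell, and cystatin F is made by immune cells and acts in endosomes and lysosomes, where cathepsin C is among its targets. The CTLA-2 proteins, first found in activated mouse T cells, resemble the propeptide that keeps cathepsin L-like enzymes inactive, and CTLA-2 alpha, the product of Ctla2a, inhibits cathepsin L.

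Ctla2b was far higher after TCDD, Cst3 was lower, and the means of Ctla2a, Cstb and Cst7 lay within 0.30 of DMSO on the log2 scale. The probe set of Ctla2b alone (1452352_at) had RMA log2 values of 11.0 and 10.0 in TCDD, against 5.4 and 6.7 in DMSO. Both TCDD arrays lay far above both DMSO arrays. The means were 10.5 ± 0.707 and 6.05 ± 0.919 (SD, n = 2 each), and the difference of 4.45 on the log2 scale (limma's moderated standard error, SE, 0.669) is a 21.9-fold higher signal. Of the 5226 other probe sets with a DMSO mean within 0.5 of that of Ctla2b, the highest differed by 2.55. TCDD replicate 1 was the higher of the TCDD arrays. Leaving out an array in turn gave differences from 3.8 to 5.1.

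The probe set annotated to both Ctla2a and Ctla2b (1416811_s_at) stood at 6.4 and 7.5 in TCDD, against 4.9 and 6.2 in DMSO. The groups did not overlap, but only 0.2 separated the lowest TCDD array from the highest DMSO array. The difference was 1.4 (SE 0.695), or 2.64-fold, and ranged from 0.75 without DMSO replicate 1 to 2.05 without DMSO replicate 2; it was 0.85 without TCDD replicate 2. Here TCDD replicate 2 was the higher TCDD array, the reverse of the Ctla2b probe set. Of 5895 other probe sets of like DMSO signal, 10 were higher in TCDD by as much or more, and the Ctla2b probe set is among those 10.

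The probe set of Ctla2a alone (1448471_a_at) stood at 5.6 and 5.5 in TCDD, against 5.0 and 6.3 in DMSO. Both TCDD arrays lay between the DMSO arrays, and the difference was -0.1 (SE 0.533). It was -0.75 without DMSO replicate 1 and 0.55 without DMSO replicate 2, so the sign rests on which DMSO array is used. The annotation gives the same Ctla2a transcript record for this probe set and for the shared one, and a different record, an expressed sequence tag, for that of Ctla2b. Because the genes are close paralogs, how far each probe set reads the other gene's transcript is uncertain; probe sequences were not used here.

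All 3 Ctla2 probe sets also differed between the control arrays by the same amount, 1.3 on the log2 scale, with DMSO replicate 2 the higher. A step of at least 1.3 in that direction was held by 41 of 22626 probe sets, or 0.181%, and the median gap between the DMSO arrays was 0.2. The Ctla2 probe sets may in part read the same transcripts, so they need not be 3 independent cases. In the TCDD group replicate 1 was the higher by 1.0 for Ctla2b, and replicate 2 by 1.1 for the shared probe set. For Ctla2a the TCDD arrays differed by 0.1, so the likeness in size and direction was not seen in that group.

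**Figure D1:**
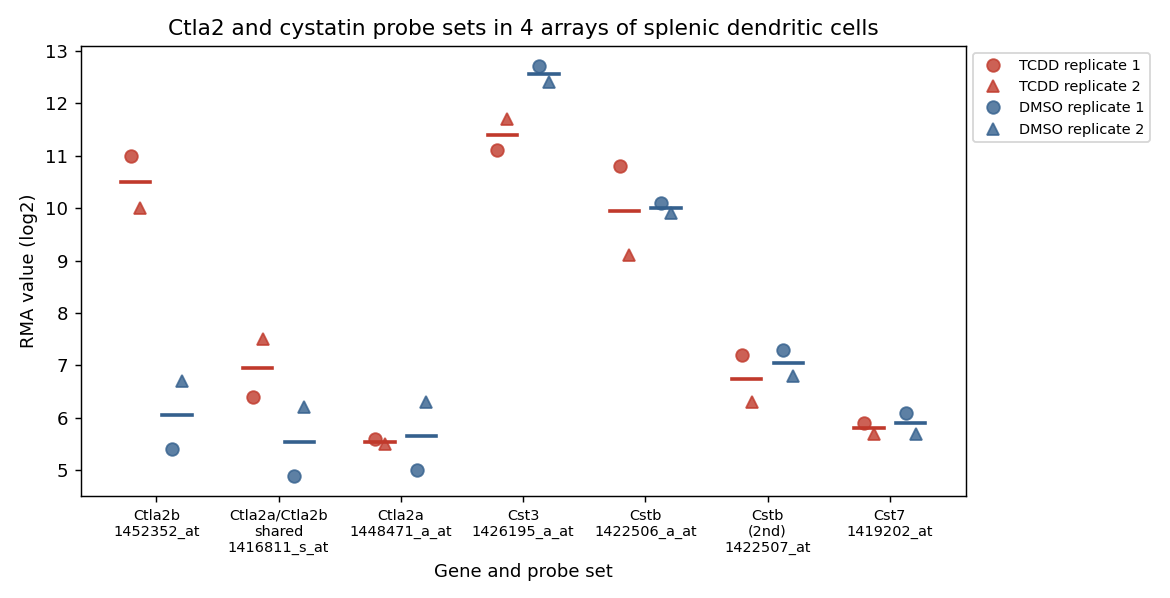
RMA values on the log2 scale (vertical axis) of the 7 Ctla2 and cystatin probe sets, with TCDD arrays in red left of DMSO arrays in blue, circles for replicate 1, triangles for replicate 2 and lines for means. Ctla2b stands at 11.0 and 10.0 in TCDD and 5.4 and 6.7 in DMSO, while the groups overlap for Ctla2a, Cst7 and both Cstb probe sets.

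Ctla2a and Ctla2b lie close together on chromosome 13, and their promoters are shown because these neighbouring genes gave such different values. The windows run from 250 bases before to 50 after the annotated start and are RefSeq sequence of build GRCm38.p6, on the minus strand: chr13:60897398-60897697 for Ctla2b and chr13:60936576-60936875 for the first of 2 Ctla2a starts. Capitals mark the bases that differ, or have no partner, within the aligned stretch.
Ctla2b: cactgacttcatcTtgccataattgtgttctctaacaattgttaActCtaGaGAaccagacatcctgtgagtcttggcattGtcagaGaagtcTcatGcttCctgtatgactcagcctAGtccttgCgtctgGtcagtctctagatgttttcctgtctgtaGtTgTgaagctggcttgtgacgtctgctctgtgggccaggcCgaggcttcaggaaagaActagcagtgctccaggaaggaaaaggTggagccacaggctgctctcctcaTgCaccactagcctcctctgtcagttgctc
Ctla2a: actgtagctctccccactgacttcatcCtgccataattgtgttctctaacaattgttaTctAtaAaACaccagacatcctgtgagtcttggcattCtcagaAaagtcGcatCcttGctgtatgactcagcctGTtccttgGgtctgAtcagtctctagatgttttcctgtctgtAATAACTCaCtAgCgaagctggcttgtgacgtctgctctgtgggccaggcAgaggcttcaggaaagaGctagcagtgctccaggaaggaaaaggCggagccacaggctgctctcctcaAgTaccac
In a global alignment 255 of 286 aligned positions were identical, or 89.2%, with 23 mismatches and 8 unpaired bases. The longest identical run had 36 bases. The window of the second Ctla2a start gave 88.6%.

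The core sequence to which AhR and its partner ARNT bind, GCGTG, was searched on both strands of these windows. It is also a form of the core that hypoxia-inducible factors bind. It is in neither the Ctla2b window nor either Ctla2a window, nor in that of Cst3, while 32.4% of all 32851 windows hold it. Of the 12566 windows of genes measured on this array, 45.3% hold the core. In the window of Cst7, on the plus strand at chr2:150570405-150570449, the core occurs once, on the opposite strand, 10 bases after the start, and the capitals mark it.
Cst7: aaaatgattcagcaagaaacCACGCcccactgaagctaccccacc
The longer form TNGCGTG is in 0 of the 5 windows, against 5.07% of all windows and 7% of those of measured genes. Cstb has no entry in the sequence table. No match says only that these letters are not in these 300 bases.

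Among the cystatins, Cst3 (1426195_a_at) differed most. Its values were 11.1 and 11.7 in TCDD, against 12.7 and 12.4 in DMSO. Both TCDD arrays lay below both DMSO arrays, with 0.7 between the groups. The difference was -1.15 (SE 0.28), or 2.22-fold lower, and ranged from -1.45 without TCDD replicate 2 to -0.85 without TCDD replicate 1. Bright probe sets leaned the same way. Of the 86 other probe sets with a DMSO mean within 0.5 of that of Cst3, 64 had a difference below 0, the median was -0.25, and 2 were as low as Cst3 or lower. With quantile normalization on top of the deposited values Cst3 differed by -0.975, and with cyclic loess by -0.876, and in both the groups still did not overlap.

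Cst3 is itself a gene of DC, so it is set beside the DC markers. Of 15 markers 14 were measured, and 13 of these lay above the 40th percentile; Xcr1, a receptor of cross-presenting DC, was dim at 5.2 to 5.5. By the brightest probe set of each gene 5 of 14 were lower in TCDD without overlap and 0 higher, against 19.4% lower and 20% higher over all genes. Most of these markers are bright, and bright probe sets were lower without overlap more often. The share was 24.2%, 45.3% and 27.9% of probe sets with a DMSO mean within 0.5 of 7.05, 10.0 and 12.55. The share over all genes is therefore a low background for these markers. The median difference of the 14 markers was -0.5, and the sum of their unlogged signals was 20313 and 29083 in TCDD, against 40131 and 29555 in DMSO. Most of that sum, on each array, is the MHC class II genes H2-Ab1, H2-Aa and H2-Eb1 and the invariant chain gene Cd74. The furthest down of the 14 was Cd74, at 10.9 and 12.6 in TCDD, against 13.2 and 12.5 in DMSO, and there the lower mean came from TCDD replicate 1. Next was Sirpa, of an inhibitory surface receptor, at 8.1 and 8.4 in TCDD, against 9.2 and 9.4 in DMSO, although its other probe sets differed by -0.15 to 0.15. H2-Eb1 and Zbtb46 followed at -0.75 and -0.65, and then the integrin gene Itgax and Batf3 at -0.6 each. Itgax stood at 9.1 and 9.4 in TCDD, against 9.6 and 10.1 in DMSO. This order is that of the brightest probe sets, where the MHC class II genes H2-Ab1 and H2-Aa differed by -0.45 and -0.15. Their other probe sets were further down than Cd74, at -2.6 and -2.5 for H2-Ab1 and -1.9 for H2-Aa. Other probe sets of Zbtb46 differed by -0.3 and -0.1, that of Irf8 by -0.25 and that of Ciita by 0.05. In these pooled cells a smaller share of a cell type and less RNA per cell cannot be told apart, and the part of the DC markers in the Cst3 difference was not tested.

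The brighter Cstb probe set (1422506_a_at) stood at 10.8 and 9.1 in TCDD, against 10.1 and 9.9 in DMSO. TCDD replicate 1 was the highest of the 4 arrays and TCDD replicate 2 the lowest. The mean difference of -0.05 (SE 0.698) therefore rests on arrays that lay on opposite sides of DMSO. It was -0.9 without TCDD replicate 1 and 0.8 without TCDD replicate 2, and under quantile normalization and cyclic loess the sign turned, to 0.287 and 0.254. A gap between the TCDD arrays at least as large as this one, 1.7, was held by 283 of 22626 probe sets, or 1.25%.

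The other Cstb probe set (1422507_at) stood at 7.2 and 6.3 in TCDD, against 7.3 and 6.8 in DMSO. TCDD replicate 2 was again the lowest array, and the difference was -0.3 (SE 0.423), or 0.15 without TCDD replicate 2. Some neutrophil markers were uneven between the TCDD arrays as well. The alarmin genes S100a8 and S100a9 were at 10.3 and 9.6 on the first TCDD array and at 5.6 and 5.3 on the second, against 6.4 each on the first DMSO array and 5.9 and 5.6 on the second. Ngp stood at 8.8 and 6.9 on the TCDD arrays, and the remaining neutrophil markers differed between those arrays by 0.7 or less. Over the 12 of 14 neutrophil markers that were measured, the summed signal was 3396 and 961 in TCDD, against 1089 and 942 in DMSO. Most of the 3396 is S100a8 and S100a9. Without overlap 3 of 12 were higher and 1 lower, against 20% and 19.4% of all genes. The part of the neutrophil markers in the Cstb values was not tested.

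Cst7 (1419202_at) stood at 5.9 and 5.7 in TCDD, against 6.1 and 5.7 in DMSO. The groups overlapped, and the difference was -0.1 (SE 0.192). It was 0.1 without DMSO replicate 1. Cst7 is known for its expression in natural killer (NK) and cytotoxic T cells. Of the 13 T and NK cell markers measured, of 16, 1 was higher and 1 lower without overlap, 6 were dim, and the median difference was -0.1. Their summed signal was 1496 and 1426 in TCDD, against 1865 and 2284 in DMSO. Most of that sum is Klrd1, of the NK cell receptor chain CD94, at 9.6 and 9.7 in TCDD, against 10.1 and 10.7 in DMSO; it is the marker that was lower.

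Over the whole array the groups did not overlap in 37.4% of probe sets, 19% higher and 18.4% lower in TCDD. Of the 7 probe sets of these genes, 2 were higher and 1 lower without overlap. Those 3 also differed by at least 2-fold, as did 0.398% of all probe sets on the higher side and 2.35% on the lower side, or 90 and 531 probe sets. Quantile normalization changed that split to 133 and 246. These genes were chosen for such differences, so their count carries no weight of its own. Limma called 0 of 22626 probe sets, or 0%, at an adjusted p under 0.05, and the smallest adjusted p in limma was 0.349. Before adjustment, limma's p was under 0.05 for 2958 of them, or 13.1%, and the test without moderation called 0.

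**Figure D2:**
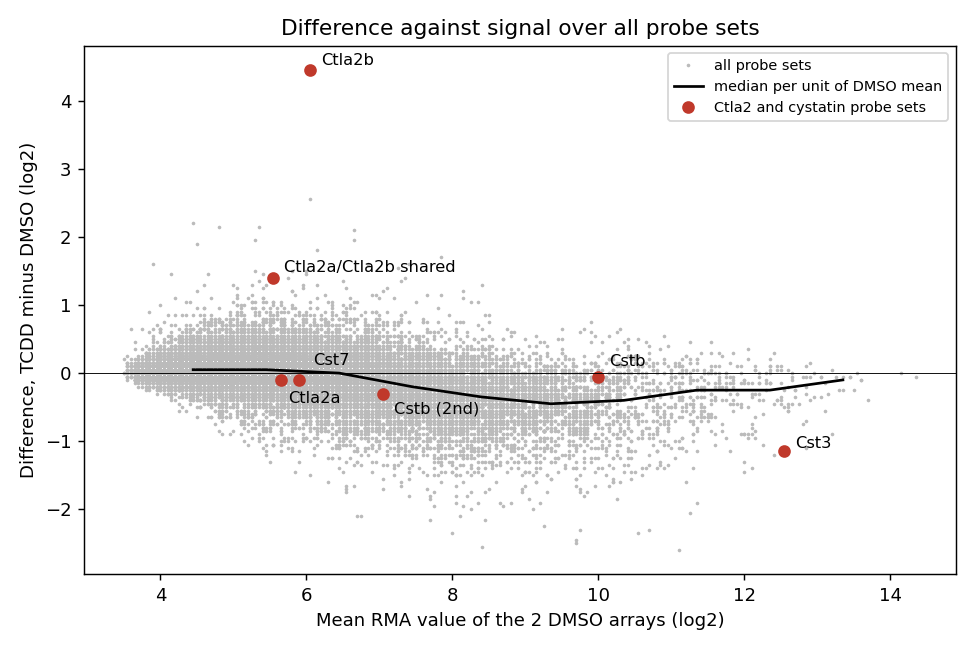
Difference between TCDD and DMSO (vertical axis, log2) against the mean RMA value of the DMSO arrays (horizontal axis, log2) for all 22626 probe sets in grey, with the median per unit of signal as a line and the 7 Ctla2 and cystatin probe sets in red. Ctla2b at 4.45 stands above every other probe set, and Cst3 at -1.15 lies below the line at the bright end.

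Other inhibitors of cysteine proteases differed by at most 0.35 on the log2 scale, apart from Cast. Of 25 listed, 10 had a probe set of their own and 6 of those were dim. Limma called 0 of the 10. Without overlap 2 were higher and 1 lower, against 20% and 19.4% of all genes, so these counts are near or below the background. The median difference was 0.1 against 0 over all genes. Cast, which encodes calpastatin, the inhibitor of calpains, stood at 6.6 and 6.5 in TCDD, against 7.2 and 7.8 in DMSO. Both TCDD arrays were lower, by -0.95 on average (SE 0.255), but the other Cast probe set differed by 0.1. Next on the lower side were Cst6 (cystatin E/M) and Cst12, at -0.05 each.

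On the higher side Cst10, a further cystatin gene, stood at 5.8 and 5.6 in TCDD, against 5.3 and 5.4 in DMSO, a difference of 0.35 (SE 0.11). The kininogen gene Kng1, whose product carries cystatin domains, differed by 0.25, with values of 5.9 and 6.3 in TCDD, against 5.8 and 5.9 in DMSO. The fetuin-A gene Ahsg, of the cystatin superfamily, differed by 0.15. Stfa3, a stefin A gene, differed by 0.05 and Cst9, Cst11 and Fetub by 0.1 each.

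Cysteine proteases themselves were lower in TCDD more often than higher. Of 15 genes of lysosomal and cytosolic cysteine proteases 14 were measured, with 7 lower and 2 higher without overlap, against 19.4% lower and 20% higher over all genes, and limma called 0. Their median difference was -0.45, against 0 over all genes, and it was -0.159 under quantile normalization, -0.205 under cyclic loess and -0.725 without DMSO replicate 2. Among the 14, Capns1 encodes the regulatory subunit of calpains, not a protease by itself, and differed by -0.35 with overlap. The background differs with signal: probe sets with a DMSO mean within 0.5 of that of Cst3 (12.55), the brighter Cstb probe set (10.0), the other Cstb probe set (7.05) and Cst7 (5.9) had median differences of -0.25, -0.4, -0.1 and 0.05. In the same order 27.9%, 45.3%, 24.2% and 12.5% of them were lower without overlap. For bright genes, as most of these proteases are, the 19.4% over all genes is therefore a low background.

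Ctsl encodes cathepsin L, the enzyme that CTLA-2 alpha inhibits. It stood at 7.4 and 7.2 in TCDD, against 9.3 and 8.2 in DMSO, with both TCDD arrays below both DMSO arrays. The difference was -1.45 (SE 0.458), or 2.73-fold lower. Ctsb, of cathepsin B, stood at 9.8 and 10.3 in TCDD, against 11.5 and 10.8 in DMSO, a difference of -1.1 (SE 0.355), and its 3 other probe sets differed by -1.25 to -0.25. Ctsc, of cathepsin C, stood at 10.3 and 10.0 in TCDD, against 10.9 and 10.9 in DMSO, a difference of -0.75 (SE 0.137).

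Ctss encodes cathepsin S, the main enzyme of invariant chain cleavage in DC. It stood at 12.5 and 12.6 in TCDD, against 12.9 and 12.8 in DMSO, a difference of -0.3 (SE 0.0848). For Ctsz and Lgmn the lower mean came mostly from TCDD replicate 1, the array with the wide gap along Gapdh. Ctsz, of cathepsin Z, stood at 7.0 and 9.8 in TCDD, against 10.3 and 10.2 in DMSO, a difference of -1.85 (SE 1.14), with its other probe sets at -1.45 and -0.2. Lgmn, of the asparaginyl endopeptidase legumain, stood at 6.5 and 7.9 in TCDD, against 8.1 and 8.1 in DMSO, a difference of -0.9 (SE 0.572).

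Ctsf, of cathepsin F, went the other way. It stood at 6.0 and 6.1 in TCDD, against 5.5 and 5.3 in DMSO, a difference of 0.65 (SE 0.11), with both TCDD arrays higher. The calpain gene Capn1 differed by 0.2, and Ctsk and Ctsw, of cathepsins K and W, by 0.05 each with overlap.

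**Figure D3:**
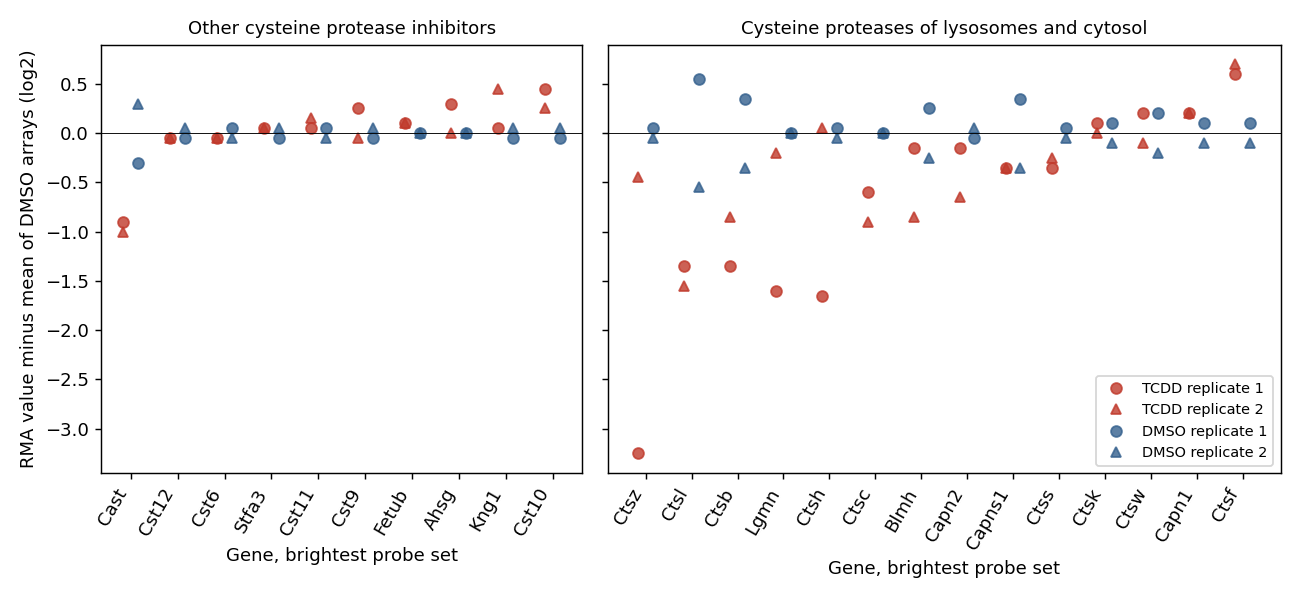
RMA value minus the mean of the DMSO arrays (vertical axis, log2) for the brightest probe set of each of 10 other inhibitors (left) and 14 genes of the cysteine protease list (right), with TCDD arrays in red left of DMSO arrays in blue, circles for replicate 1 and triangles for replicate 2. Ctsl and Ctsb are lower in both TCDD arrays, Ctsz and Lgmn mostly in TCDD replicate 1, Ctsh in TCDD replicate 1 only, and Ctsf is higher in both.

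The genes whose profile over the 4 arrays was most like that of Ctla2b were taken by the root mean square (RMS) difference between profiles, each centred on its own mean. The nearest 5 were Vat1 (RMS difference 1.39), which encodes a vesicle membrane protein, Ahrr (1.4), which encodes a repressor of AhR and is a known target of it, the kallikrein gene Klk1b5 (1.52), Il1r2 (1.57), the decoy receptor for interleukin-1, and Lce1d (1.57), of the skin barrier. The profiles were not scaled for size, so for Ctla2b this measure favours genes with large upward differences. Even so none of the 5 was near in size, since their differences ran from 1.55 for Il1r2 to 2.55 for Vat1. In all 5 TCDD replicate 2 was the higher TCDD array. Ahrr stood at 7.2 and 7.8 in TCDD, against 5.5 and 5.2 in DMSO, and Vat1 at 7.9 and 9.3 in TCDD, against 6.2 and 5.9 in DMSO.

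For the shared probe set the nearest 3 genes came much closer. They were the fatty acid transporter gene Slc27a2 (RMS difference 0.308), the tubulin gene Tubb4b (0.324) and Elapor1 (0.384). Slc27a2 stood at 7.2 and 7.8 in TCDD, against 5.7 and 6.3 in DMSO, so it shared the order of all 4 arrays with the shared Ctla2 probe set. With 4 arrays no correlation was computed, and these genes were picked for their likeness, so it supports nothing further.

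**Figure D4:**
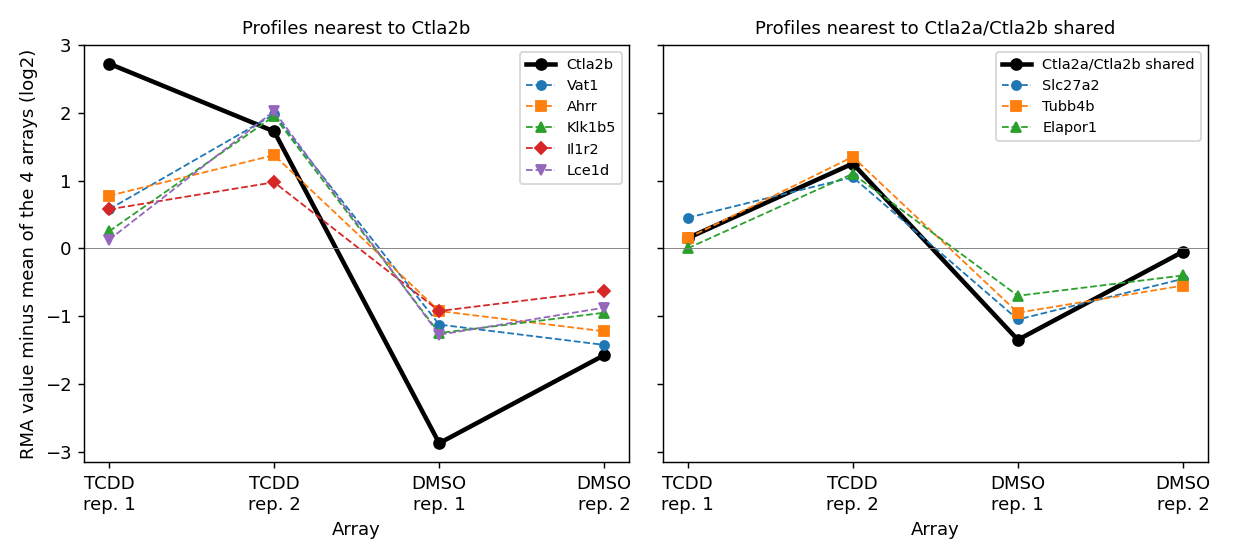
RMA value minus the mean of the 4 arrays (vertical axis, log2) in each array (horizontal axis) for Ctla2b with its 5 nearest genes (left) and for the shared Ctla2a and Ctla2b probe set with its 3 nearest (right). Ctla2b is higher in TCDD replicate 1, and its 5 nearest genes are higher in TCDD replicate 2.

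Ctla2 genes are also expressed by cell types other than DC, such as mast cells and endothelial cells, so their markers are given beside the Ctla2b values. Of 12 mast cell and basophil markers, all measured, 5 were higher and 1 lower without overlap, with a median difference of -0.05 and a summed signal of 1081 and 1189 in TCDD, against 1111 and 1272 in DMSO. Furthest up was the chymase gene Cma1, at 6.4 and 6.7 in TCDD, against 6.1 and 5.8 in DMSO, and furthest down Kit, of the stem cell factor receptor, at 7.7 and 8.5 in TCDD, against 8.4 and 9.0 in DMSO, with overlap. The other 4 that were higher were Hdc, Fcer1a, Mcpt8 and Tpsab1, by 0.15 to 0.45, and the mast cell protease gene Cpa3 stood at 5.8 and 5.3 in TCDD, against 5.6 and 5.6 in DMSO. Of 12 endothelial markers 3 were higher and 0 lower, with a median of 0 and a summed signal of 987 and 845 in TCDD, against 927 and 900 in DMSO. Neither sum was higher in both TCDD arrays than in both DMSO arrays. Those of 2 other lists were: the 8 megakaryocyte and platelet markers summed to 854 and 738 in TCDD, against 633 and 669 in DMSO, and the 6 measured erythroid markers to 493 and 487 in TCDD, against 438 and 450 in DMSO. Without overlap 4 of the 8 and 2 of the 6 were higher and 0 lower. The listed genes Hbb-b1 and Hbb-bt share a probe set that carries several symbols, so the erythroid sum and count leave it out. That probe set had a DMSO mean of 8.95, brighter than any of the 6, and it differed by -0.8, against the direction of the sum. Of the other lists, 6 of 14 macrophage and monocyte markers were lower and 0 higher, and 3 of 10 B cell markers were higher and 4 lower. Over all genes 20% were higher and 19.4% lower without overlap, and the lower share was larger among bright probe sets, as given for the DC markers. At dimmer signal it was smaller: with a DMSO mean within 0.5 of that of Ctla2a (5.65), 36.4% of probe sets were below 0 and 11.2% lower without overlap. The share that was higher was not counted by signal, so 20% may be a low background for lists of mostly dimmer genes. The part of any of these cells in the Ctla2b difference was not tested.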

How the data were processed

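The submitters' processing notes name RMA (background correction, quantile normalization between arrays and a summary per probe set), with no version. The deposited arrays nevertheless do not share the same distribution of values. Quantile normalization on top of them moved the brighter Cstb probe set from 9.1 to 9.43 in TCDD replicate 2. In DMSO replicate 2 it moved that probe set from 9.9 to 9.65. The authors deposited log2 values rounded to 1 decimal. Arrays give no counts, so their number limits the precision. The 64 control probe sets were left out. By the platform annotation 20380 probe sets had 1 symbol, 691 several and 1555 none.

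All 22626 probe sets were fitted as TCDD minus DMSO by lmFit and eBayes of limma 3.58.1 under R 4.3.3, with Benjamini-Hochberg adjustment over all of them; the fit was tested on simulated data. Values are means ± SD with n = 2, and each SE is limma's. With 2 arrays against 2 no exact permutation test of a single probe set can reach 0.05, and none was run. Genes on lists are given by their brightest probe set, and unlogged sums are of 2 to the power of the value. Promoters came from RefSeq, matched by symbol for 4 of the 5 genes, and were aligned with Biopython 1.88.

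The members and lists were chosen with earlier results of these data known. Genes were named by rule: every member probe set, the 3 largest differences per direction in the inhibitor and protease lists, 5 proteases fixed by role, and the nearest profiles. Further genes of these lists, and all marker genes named, fall outside that rule and were chosen after their values were seen. Alternatives were other scalings, a filter on dim probe sets, the replicate number as a block, other priors and leaving out each array.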

Additional observations from a re-analysis of the deposited data

How the results depend on the processing

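Limma called 0 probe sets as deposited, under quantile normalization, median centring, cyclic loess, removal of dim probe sets, the trended robust prior, no moderation (741 probe sets without spread could not be tested there) and with each array left out. With the replicate block it called 0 too, and the Ctla2b difference stayed 4.45 with an SE of 0.89; the difference between replicates 1 and 2 correlated at -0.189 between the groups, and a crossed pairing, chosen after the data were seen, called 0. The scalings moved each member difference by less than the spread between replicates, though the brighter Cstb probe set changed sign. With 2 arrays per group, leaving out 1 array cannot move a difference by more than that spread, and the block cannot move it at all, so neither bears on stability. With 1 array left out Ctla2a, both Cstb probe sets and Cst7 changed sign, at differences of at most 0.8. Of the probe sets at least 2-fold apart without overlap, the 90 higher ones became 594 at 1.5-fold and 82 to 326 on leaving out any array. The 531 lower ones became 1894 at 1.5-fold, 246 under quantile normalization, 291 under cyclic loess and 652 to 942 with 1 array left out, where an array alone in its group overlaps less readily. The median of the other inhibitors went from 0.1 to 0.2 on removal of dim probe sets, which leaves 4 of 10 genes. The count of promoter windows with the AhR motif went from 1 to 0 with the longer form. Values near the dim end, such as those of Ctla2a and Cst7, can hide a change.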

Other observations

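The neighbourhood of the Ctla2 genes on chromosome 13 was looked up after the values were seen. In the order of the RefSeq annotation Tpbpb, a gene named for trophoblast, lies between Ctla2b and Ctla2a, and Tpbpa follows Ctla2a. Beyond it come the cathepsin genes Ctsj, Ctsq, Ctsr, Cts6, Cts8, Cts7 and Ctsm, known from mouse placenta. Counting 8 protein-coding genes to each side, 14 of 17 neighbours were measured, by 22 probe sets. Their differences between TCDD and DMSO ran from -0.7 to 0.55. Tpbpb stood at 4.3 and 4.3 in TCDD, against 4.2 and 4.4 in DMSO, on 1416169_at, and Ctsj at 3.8 and 3.8 in TCDD, against 3.8 and 4.0 in DMSO. The largest difference upward was in Dapk1, a death-associated protein kinase gene, at 7.1 and 7.8 in TCDD, against 7.0 and 6.8 in DMSO. The one furthest down was in Tut7, which encodes a uridylyl transferase, at 8.4 and 8.1 in TCDD, against 8.8 and 9.1 in DMSO. No neighbour probe set therefore had a difference near the 4.45 of Ctla2b.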
